A study of Homo sapiens with 4 samples.

Results

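Ion channel genes of SK-N-BE(2) cells were examined after knockdown of SAPCD2. The members are protein-coding genes whose symbols name voltage-gated potassium, sodium and calcium channels, the related inwardly rectifying, 2-pore-domain and calcium- or sodium-activated potassium channels, the HCN pacemaker channels, and their auxiliary subunits. The rule took symbols that begin with KCN and a letter, SCN and a digit, or CACNA, CACNB or CACNG, together with the HCN genes, and joined them to the count table by Ensembl identifier. It matched 140 of the 64252 genes in the table, and the 87 with 10 or more counts in at least 2 libraries are described here. The remaining 53 fell below that minimum, and 18 of these had no count in any library.

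SK-N-BE(2) is an established human neuroblastoma line that carries amplified MYCN. The control group (sh-Scb) held 2 libraries of cells carrying a scramble shRNA, and the knockdown group (sh-SAPCD2) held 2 libraries of cells carrying an shRNA against SAPCD2, a gene linked to cell division and polarity. The shRNAs were delivered by lentivirus and the transduced cells were kept under puromycin, so both groups had passed through infection and drug selection. The labels do not say whether the 2 libraries of a group came from separate cultures. The p-values therefore measure only the spread between these libraries, which may be technical.

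Voltage-gated channels are membrane pores that open or close with the membrane potential, and sodium and calcium channels carry depolarizing inward current while potassium channels carry the outward current that restores the resting potential. The pores of sodium and calcium channels are formed by a single long protein with repeated domains, whereas potassium channels assemble from separate subunits. Auxiliary beta, alpha-2-delta and gamma subunits change gating and delivery to the membrane. In sympathoadrenal and neuroblastoma cells the hERG channel (KCNH2), the M-type KCNQ channels, the N-type calcium channel and the sodium channel Nav1.7 (SCN9A) are well known.

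The libraries held between 25347900 and 31850997 counts on genes, so that 3 counts, taken as the detection floor, corresponded to between 0.0955 and 0.119 CPM (counts scaled to library size by TMM). SAPCD2 itself was counted 2308 and 2263 times in the sh-Scb libraries and 895 and 1648 times in the sh-SAPCD2 libraries, 42.7% and 63.3% of the control mean in CPM (log2 fold change -0.91, SE 0.193, adjusted p = 0.0206, edgeR quasi-likelihood test). The adrenergic neuroblastoma markers were all detected (12 of 12), with summed levels of 6606 to 6778 CPM in the control and 8764 to 10799 CPM in the knockdown libraries, where MYCN was higher and ISL1, TBX2 and DBH were among those lower. Without MYCN the other 11 markers summed to 3543 and 3427 CPM in the control and 2859 and 3708 CPM in the knockdown libraries. Mesenchymal markers summed to between 520 and 573 CPM in the 4 libraries, with PRRX1 at 0, and none of the 6 tested passed the test. Schwann cell markers summed to between 2.54 and 7.29 CPM with SOX10 at 0, endothelial markers to between 0.0727 and 1.03 CPM, and leukocyte markers to between 9.52 and 13.9 CPM with CD3E at 0. VWF and CD14 were higher in the knockdown group, and the part of these markers in the channel results was not tested.

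Channel transcripts were called higher more often than lower in the knockdown cells. hERG (KCNH2), already the most abundant channel transcript per length, rose 3.11-fold, and 3 pore-forming calcium channels, the T-type CACNA1H and CACNA1I and the N-type CACNA1B, rose about as far as the sodium-activated potassium channel KCNT1. CACNG4, a transmembrane AMPA receptor regulatory subunit and the second most abundant channel transcript per length in control cells, fell to 29.0% of its control level, while its relative CACNG8 rose 5.24-fold from a low level. Of the 87 genes, 15 (17.2%) were higher and 4 (4.60%) were lower at an adjusted p under 0.05, against 12.4% of all 18779 tested genes higher and 12.5% lower. With an absolute log2 fold change above 1 as well, the cut used for differentially expressed genes (DEGs), 8 were higher (9.20%) and 4 lower (4.60%), against 4.69% and 5.15% of all tested genes. The share of higher genes lay above its background and that of lower genes below it, and these differences in share were not tested. All members are protein-coding. In a fit of protein-coding genes alone, 17.2% of the channel genes and 15.5% of all were higher. Higher DEGs were then 6.90% of the channel genes and 4.96% of all. After correction for GC content and length the order of the higher shares at an adjusted p under 0.05 turned, with 19.5% of the channel genes and 20.9% of all tested genes higher. The share of higher DEGs did not turn, with 8.05% of the channel genes and 4.70% of all. Of the 4 lower DEGs, KCNQ3 and SCN1A entered only through their control counts, which fixed their direction. KCNJ2, 1 of the 8 higher DEGs, entered only through its knockdown counts, which fixed its direction too. Among genes with a mean of at least 1 CPM, 10.8% of the channel genes and 5.11% of all were higher DEGs. At that level 3.08% of the channel genes and 5.45% of all were lower DEGs. In bulk RNA, fewer cells of a type and less RNA per cell cannot be told apart.

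The median log2 fold change of the 87 genes was 0.23, with 60 above 0. Over all tested genes the median was 0.02, with 9619 of 18779 above 0. Among tested protein-coding genes 15.2% were higher and 13.9% lower, with a median of 0.04. At an unadjusted p under 0.05 there were 32 channel genes. The share of all tested genes at that cut was not computed, so this count has no background to be read against. The 2 libraries of one group did not overlap those of the other in 60 of the 87 genes (69.0%), close to the 67% found over all tested genes, and they did not overlap in any of the 19 called genes. Of the 87, 75 reached 10 counts in both libraries of both groups. KCNN2, KCNE3, KCNQ3 and SCN1A did so only in the control group. KCNN4, KCNK15, KCNK6 and KCNJ2 were among those that did so only in the knockdown group, and CACNA1G, KCNE2 and KCNV2 reached it in 1 library of each. A gene admitted through one group alone was bound to lean toward that group. Of the 19 calls, 8 (KCNH2, CACNG4, CACNG8, KCNJ2, KCNQ3, KCNT1, CACNA1H and CACNA1B) held under each of 14 alternative settings that gave them an adjusted p. The other 11 lost their call under at least 1 setting, 7 of them without the first and 10 without the second control library.

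**Figure D1:**
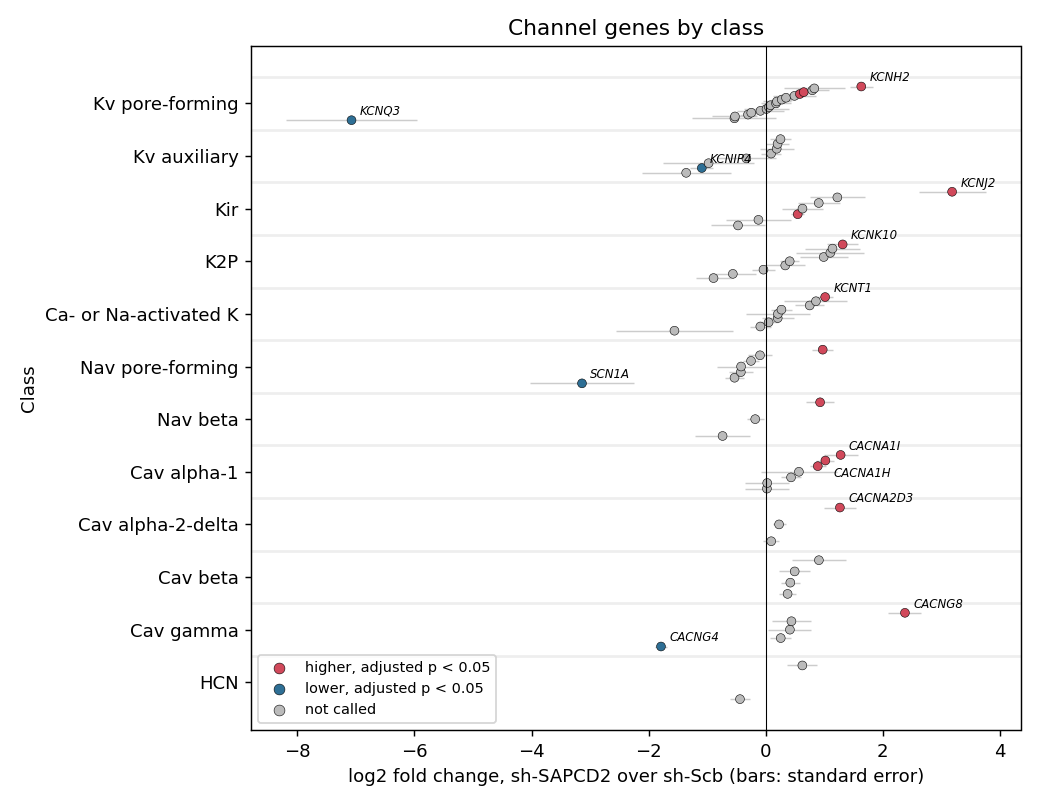
Log2 fold change of 83 of the 87 channel genes, sh-SAPCD2 over sh-Scb, on the x axis, with 1 row for each of 12 classes and bars for the standard error. Red points are higher and blue points lower at an adjusted p under 0.05, and gene names mark DEGs. The 7 Cav alpha-1 and 4 Cav beta points all lie right of 0, the Nav pore-forming points mostly left of it, and KCNQ3 lies far left because its knockdown counts are 0.

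In control cells 9 of the 87 genes stood at 10 or more CPM per kilobase of the GENCODE 44 canonical transcript, 36 between 1 and 10, and 42 under 1, with a median of 1.01. On this per-length scale KCNH2 led with a level of 57.0 ± 0.941 (SD, n = 2), followed by CACNG4 at 39.3 ± 1.04 and the alpha-2-delta subunit CACNA2D1 at 25.6 ± 0.316. The electrically silent Kv subunit KCNG1 (24.6 ± 0.693) was close behind CACNA2D1. The ATP-sensitive pore KCNJ8 (17.1 ± 0.510) and SCN9A (13.4 ± 0.411) came next, ahead of the Elk-type channel KCNH8 (12.3 ± 0.201) and the Kv beta subunit KCNAB2 (11.7 ± 0.477). The leading transcripts thus came from the Kv, Kir, Nav and calcium channel subunit classes alike.

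In the knockdown cells KCNH2 stayed first at a level of 177.0 ± 49.8 CPM per kilobase (SD, n = 2), and CACNG4 moved from rank 2 to rank 8 at 11.4 ± 0.416. The 10 highest genes of the control cells shared 9 with the 10 highest of the knockdown cells. The highest levels of the other classes in control cells were those of the background potassium channel KCNK3 (TASK-1) at 5.86 ± 0.377 in control and 5.71 ± 1.51 in knockdown cells, the sodium beta subunit SCN3B at 7.54 ± 0.322 and 6.67 ± 0.908, and the calcium beta subunit CACNB3 at 6.87 ± 0.343 and 9.21 ± 1.43. The sodium-activated potassium channel KCNT2 stood at 4.64 ± 0.184 and 5.61 ± 1.14 in the same order, and the pacemaker HCN2 at 3.59 ± 0.302 and 5.54 ± 1.92. None of these 5 passed the test. In the knockdown cells KCNK1 (6.17 ± 0.563) stood above KCNK3, and KCNT1 (7.55 ± 0.939) above KCNT2.

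**Figure D2:**
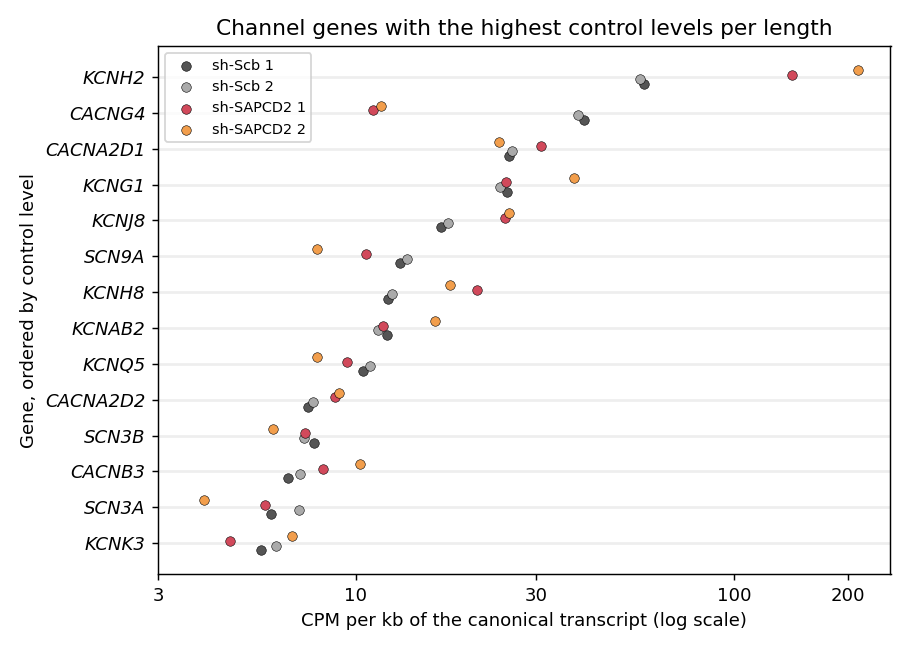
Level in each library, in CPM per kilobase of canonical transcript on a log axis, of 14 of the 15 channel genes with the highest control means. Grey points are the 2 sh-Scb and coloured points the 2 sh-SAPCD2 libraries. KCNH2 lies right of all others in every library, and CACNG4 is the only 1 of the 14 whose knockdown points sit far left of its control points.

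The study designed 2 hairpins against SAPCD2, and the labels of these libraries give only sh-SAPCD2, while the study's own display of them names hairpin #1. Bases 2 to 8 of an shRNA guide, the seed, can pair with other transcripts as a microRNA does. The guide of each hairpin is shown because channel transcripts were searched for its seed match, with the seed in capitals:
sh-SAPCD2 #1 guide: aTGAAGGTggaatccagaggt
sh-SAPCD2 #2 guide: aTCATCTCcaaaccctgcagc

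The match to the first seed, ACCTTCA, was searched on the sense strand of the 3′ UTR of each canonical transcript. It was present in 12.5% of 13583 tested protein-coding genes, in 12.4% of those that were higher and in 14.9% of those that were lower. Among the channel genes 19 of 87 (21.8%) held it, 6 of the 15 higher, 2 of the 4 lower and 11 of the 68 that were not called. The match to the second seed, GAGATGA, was in 14.8% of all and in 21 of the 87 channel genes, 5 of the 15 higher and 2 of the 4 lower. Channel 3′ UTRs were longer, with a median of 2203 bp against 1345 bp over all tested protein-coding genes, and a longer UTR holds any 7-base word more often. A match is only a description of these letters. Matches to the first seed in KCNK10, KCNC1, KCNH8 and SCN4B, all higher in the knockdown group, are not shown. The windows in 4 called genes that recur below, read 5′ to 3′ along the transcript from hg38 with the first seed's match in capitals, were these, with CACNG4 and SCN1A lower and KCNJ2 and CACNA1H higher in the knockdown group:
CACNG4, chr17:67032052-67032078, plus strand: agagcaacttACCTTCAtttctttgtc
SCN1A, chr2:165987284-165987310, minus strand: agcagacaatACCTTCAaagatatcat
SCN1A, chr2:165986604-165986630, minus strand: tataatttctACCTTCAaaattagatc
KCNJ2, chr17:70177542-70177568, plus strand: tcaccagcccACCTTCAccttagggaa
KCNJ2, chr17:70179137-70179163, plus strand: gctgcattttACCTTCAaaatatttgt
CACNA1H, chr16:1221411-1221437, plus strand: gcccaatgtcACCTTCActcacagtct

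Pore-forming Kv genes form tetrameric voltage-gated potassium channels, and 21 of 40 were reported, 3 of them higher and 1 lower, with a median log2 fold change of 0.18. None of the 8 KCNA (Shaker-type) and none of the 3 KCNS genes reached the count minimum, while all 5 KCNQ genes and 6 of 8 KCNH genes did. The class was therefore represented mainly by the KCNH, KCNQ, KCNB, KCNC, KCND and KCNG families.

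KCNH2 (ENSG00000055118, chr7:150944961-150978321, minus strand, hg38, 15 exons in the canonical transcript) encodes hERG, which carries the rapid delayed rectifier current. It was counted 6837 and 6653 times in the sh-Scb libraries and 15412 and 28608 times in the sh-SAPCD2 libraries, or 248 and 242 against 609 and 911 CPM. Both knockdown libraries were far above both controls, and they also differed from each other by more than the controls did. The group means were 245 ± 4.04 and 759.9 ± 214 CPM (SD, n = 2 each), a 3.11-fold difference with a log2 fold change of 1.64 (SE 0.192, adjusted p = 0.00447). KCNH2 alone took 14.01% (Wilson 95% interval 13.7 to 14.3%) and 13.4% (13.1 to 13.7%) of the counts on all 140 channel genes in the control libraries, and 27.0% (26.6 to 27.4%) and 35.1% (34.8 to 35.4%) in the knockdown libraries. These intervals cover counting error only. The summed level of all 140 genes was 1767 and 1799 CPM in the control and 2255 and 2594 CPM in the knockdown libraries.

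KCNH8 and KCNC1 rose by less, and KCNQ3 fell below detection. KCNH8, an Elk-type relative of hERG, was counted 1705 and 1738 times in control and 2690 and 2825 times in knockdown libraries (62.4 ± 1.02 and 98.1 ± 11.5 CPM, log2 fold change 0.65, SE 0.123, adjusted p = 0.0149). KCNC1, the fast Kv3.1 channel, was counted 444 and 479 times against 663 and 757 times (16.7 ± 0.944 and 25.1 ± 1.48 CPM, log2 fold change 0.59, SE 0.139, adjusted p = 0.0287). The KCNH8 knockdown libraries stood at 106 and 90.0 CPM, further apart than the controls at 61.7 and 63.2 CPM. For KCNC1 the levels were 16.1 and 17.4 CPM in control and 26.2 and 24.1 CPM in knockdown libraries. KCNQ3, an M-channel subunit, was counted 16 and 17 times in control libraries and not at all in either knockdown library, at least 5.05-fold lower when the knockdown level is set at 3 counts per library. Its fitted log2 fold change of -7.08 (SE 1.12, adjusted p = 0.0128) depends on how the fit treats counts of 0 and is not a bound, and no class median depends on it.

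KCNQ5, an M-channel gene at a high level per length, had a log2 fold change of -0.30 (adjusted p = 0.142). KCNG1 (1515 and 1450 against 1381 and 2585 counts) overlapped between the groups. KCND2, which carries A-type current, had a log2 fold change of 0.06.

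The Kv auxiliary class, with 8 of 13 genes reported, had a median log2 fold change of -0.12, with 4 of the 8 above 0. KCNE3 (14 and 12 against 8 and 2 counts) entered only through its control counts and was bound to lean toward control. The sign of the class median depends on KCNE3. The 1 called gene of the class was KCNIP4, a calcium-binding subunit of Kv4 channels. KCNIP4 was counted 190 and 205 times in control and 84 and 107 times in knockdown libraries. The knockdown level of 3.36 ± 0.0627 CPM was 46.9% of the control level of 7.16 ± 0.405 CPM (log2 fold change -1.09, SE 0.197, adjusted p = 0.0132). KCNIP2 and KCNIP3 had log2 fold changes of 0.19 and -0.33 with overlapping groups, and KCNAB2 of 0.25 (adjusted p = 0.318).

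Inwardly rectifying (Kir) channels pass inward more readily than outward current and set the resting potential. Of 16 genes 7 were reported and 2 were higher. KCNJ2 (Kir2.1, chr17:70168673-70180044, plus strand) was counted 2 and 4 times in control and 22 and 37 times in knockdown libraries. Its summed counts of 6 and 59 gave a ratio of 9.56 after scaling (exact 95% interval 4.14 to 27.1, counting error only), and its adjusted p was 0.0129. The control level was at or near the floor and the knockdown level of 1.02 ± 0.219 CPM was itself low. KCNJ8 (Kir6.1), a pore of ATP-sensitive potassium channels, was counted 1054 and 1095 times against 1423 and 1817 times, a 1.46-fold rise from 39.0 ± 1.16 to 57.0 ± 1.16 CPM (log2 fold change 0.55, SE 0.113, adjusted p = 0.0192). Its sulfonylurea receptor partner ABCC9 was not called (log2 fold change 0.25, adjusted p = 0.314). KCNJ12 (34 and 56 against 63 and 114 counts, adjusted p = 0.113) has a near-identical copy, KCNJ18, with at most 4 counts in a library, and reads could be split between them.

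K2P channels, with 2 pore domains a subunit, carry background leak current, and 9 of 15 were reported. KCNK10 (TREK-2), a mechanosensitive member, was counted 42 and 39 times in control and 83 and 127 times in knockdown libraries, a 2.49-fold rise to 3.66 ± 0.541 CPM (log2 fold change 1.32, SE 0.263, adjusted p = 0.0176). Its relative KCNK2 (TREK-1) had overlapping groups and a log2 fold change of 0.34. KCNK3 was counted 957 and 1044 against 728 and 1318 times, with the knockdown libraries on either side of the controls (log2 fold change -0.04). KCNK12 had the lowest log2 fold change of the class at -0.89 (96 and 139 against 66 and 63 counts, adjusted p = 0.0731).

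Calcium- and sodium-activated potassium channels couple membrane potential to intracellular ions, and 9 of 12 were reported. KCNT1 (Slack, ENSG00000107147, chr9:135702185-135795508, plus strand), a sodium-activated channel, was counted 718 and 747 times in control and 1242 and 1838 times in knockdown libraries. It rose 2.02-fold, from 26.6 ± 0.818 to 53.8 ± 6.69 CPM (log2 fold change 1.02, SE 0.139, adjusted p = 0.00610). KCNT2, the related Slick channel, had a log2 fold change of 0.27 (adjusted p = 0.290), and the BK channel pore KCNMA1 had overlapping groups at 0.05. KCNN2, an SK channel, was counted 28 and 27 times in control libraries and 0 and 20 times in the knockdown libraries, which differed too much from each other for a call (adjusted p = 0.299).

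Pore-forming sodium channels carry the upstroke of the action potential. Of 10 genes 7 were reported, and SCN2A was the only 1 with a log2 fold change above 0, with a class median of -0.42. SCN2A (chr2:165194993-165392310, plus strand), the Nav1.2 channel, was counted 537 and 653 times in control and 1207 and 1172 times in knockdown libraries (21.6 ± 3.04 and 42.5 ± 7.33 CPM, log2 fold change 0.98, SE 0.179, adjusted p = 0.0136). Its neighbour SCN3A overlaps its first part on the opposite strand, and without strand in the counting, which the sources used here do not give, reads from the overlap cannot be assigned to one gene. SCN3A was counted 1498 and 1773 against 1327 and 1136 times (log2 fold change -0.42, adjusted p = 0.172), opposite in sign to SCN2A. SCN1A, which holds the 2 seed matches shown above, was counted 22 and 30 times in control and 0 and 6 times in knockdown libraries. Its summed counts gave a ratio of 0.112 (exact 95% interval 0.0394 to 0.261, counting error only), with an adjusted p of 0.0478.

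SCN9A (Nav1.7) was the most abundant sodium channel transcript per length and lay just outside the threshold, with 3522 and 3664 counts in control and 2617 and 2423 in knockdown libraries (log2 fold change -0.53, SE 0.155, adjusted p = 0.0529). It was called lower under 9 of the 14 alternative settings. SCN8A (Nav1.6) had a log2 fold change of -0.25 (adjusted p = 0.221). Sodium beta subunits are adhesion-type partners of the pore. SCN4B was counted 151 and 149 times in control and 211 and 389 times in knockdown libraries (5.44 ± 0.0362 and 10.4 ± 2.86 CPM, log2 fold change 0.93, SE 0.237, adjusted p = 0.0353), whereas the more abundant SCN3B had a log2 fold change of -0.18 with overlapping groups.

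Voltage-gated calcium channel alpha-1 genes encode the calcium pore, and all 7 of the 10 that were reported had log2 fold changes above 0, with 3 called higher and a median of 0.57. CACNA1H (Cav3.2, ENSG00000196557, chr16:1153106-1221771, plus strand), a low-voltage-activated T-type channel, was counted 411 and 433 times in control and 714 and 1066 times in knockdown libraries. Its level rose 2.03-fold, from 15.3 ± 0.607 to 31.1 ± 4.06 CPM (log2 fold change 1.02, SE 0.152, adjusted p = 0.00764). CACNA1I (Cav3.3), a second T-type channel, was counted 26 and 28 against 58 and 78 times (log2 fold change 1.28, SE 0.289, adjusted p = 0.0250). The T-type channel CACNA1G was near the count minimum with overlapping groups (7 and 12 against 7 and 23 counts).

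CACNA1B (Cav2.2, ENSG00000148408, chr9:137877782-138124624, plus strand), the N-type channel of nerve terminals, was the most abundant alpha-1 transcript per length. It was counted 832 and 873 times in control and 1314 and 1973 times in knockdown libraries, a 1.86-fold rise from 30.9 ± 1.14 to 57.4 ± 7.72 CPM (log2 fold change 0.89, SE 0.140, adjusted p = 0.00898). The L-type CACNA1C had a log2 fold change of 0.44 (adjusted p = 0.106), and CACNA1D and CACNA1A, of the L and P/Q types, of 0.03 and 0.02.

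The alpha-2-delta and beta subunits bring the pore to the membrane. CACNA2D3 was counted 66 and 51 times in control and 147 and 140 times in knockdown libraries (2.12 ± 0.379 and 5.13 ± 0.954 CPM, log2 fold change 1.27, SE 0.266, adjusted p = 0.0203). CACNA2D1, the gabapentin receptor, was the most abundant and had overlapping groups (5294 and 5366 against 5895 and 5669 counts, log2 fold change 0.10, adjusted p = 0.647). All 4 beta subunit genes lay above 0 with a median log2 fold change of 0.46, and none passed the test.

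The gamma family held the opposed pair. Several gamma genes encode TARPs, which traffic and gate AMPA-type glutamate receptors. CACNG4 (ENSG00000075461, chr17:66964707-67033398, plus strand, 4 exons in the canonical transcript), with the seed match shown above in its last exon's UTR, was counted 3959 and 3799 times in control and 1005 and 1313 times in knockdown libraries. The levels of 143 and 138 CPM against 39.7 and 41.8 CPM lay close together within each group and far apart between them. The log2 fold change was -1.79 (SE 0.106, adjusted p = 0.00201), the smallest adjusted p of the 87 genes. CACNG8 (ENSG00000142408, chr19:53962937-53990215, plus strand) was counted 19 and 23 against 107 and 118 times, from 0.762 ± 0.105 to 3.99 ± 0.332 CPM (log2 fold change 2.38, SE 0.283, adjusted p = 0.00456). CACNG7, its neighbour on chromosome 19, and CACNG2 had log2 fold changes of 0.26 and 0.44 and were not called. The summed level of the 8 gamma genes was 153 and 147 CPM in the control and 54.3 and 57.0 CPM in the knockdown libraries, most of it CACNG4.

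HCN channels open on hyperpolarization and carry the pacemaker current. HCN2 (319 and 358 against 362 and 741 counts, log2 fold change 0.63, adjusted p = 0.122) and HCN3 (267 and 288 against 176 and 248 counts, log2 fold change -0.44, adjusted p = 0.117) were not called. The groups did not overlap in either gene, and the second knockdown library held most of the HCN2 excess.

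**Figure D3:**
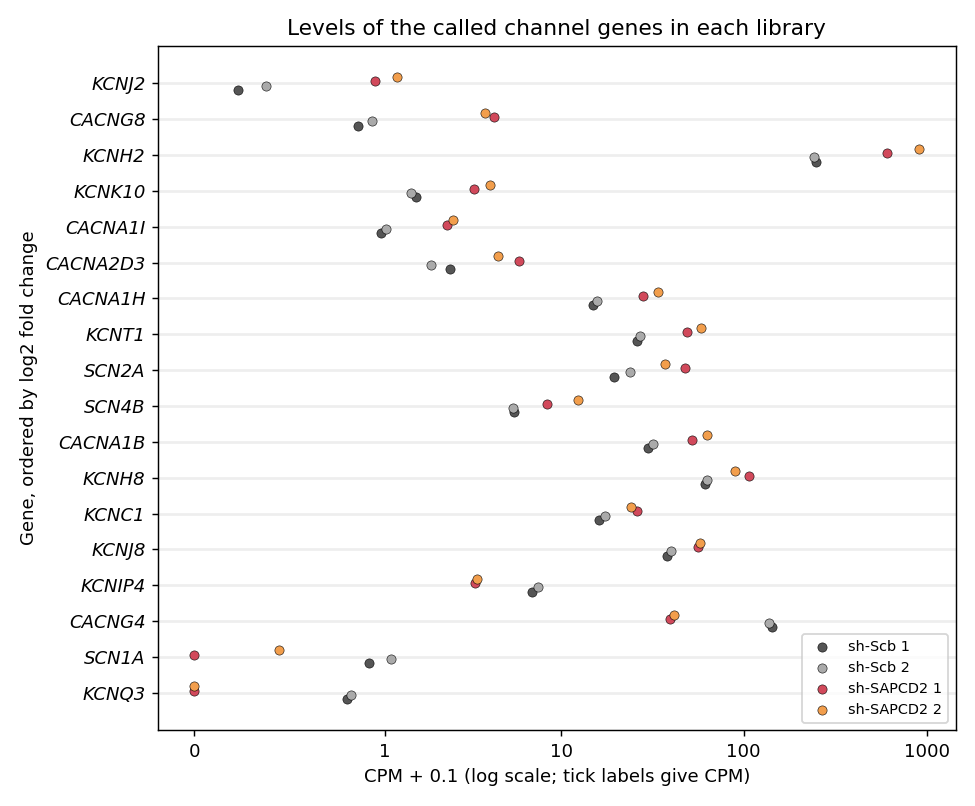
Level of 18 of the 19 called channel genes in each library, as CPM + 0.1 on a log axis whose tick labels give CPM. Grey points are the sh-Scb and coloured points the sh-SAPCD2 libraries, and genes are ordered by log2 fold change. The groups do not overlap in any row, and the called genes range from under 1 CPM (KCNQ3, SCN1A and KCNJ2) to 911 (KCNH2).

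Fold changes ran with the GC content of the transcript across the whole table. Tested genes with a mean of at least 1 CPM were put into 5 equal groups by GC content of the canonical transcript (2938 genes each), and the median log2 fold change went from -0.09 in the lowest group through -0.01 in the middle to 0.27 in the highest. The second knockdown library against the first went from -0.25 to 0.40 on the same log2 scale, whereas the control libraries differed by between -0.01 and 0.02. Of the 65 channel genes above 1 CPM, 24 lay in the highest group, and their median there was 0.46. KCNH2 (66.8% GC) and CACNA1H (66.1% GC) are among them, as is CACNG4 (58.6% GC), which fell. After correction for GC content and length their log2 fold changes were 1.22, 0.67 and -1.90, and all 3 were called in that fit. The median over the channel genes was then 0.14. The 2 knockdown libraries differed by over 1.5 times in 10 of the 65 genes, 8 of them higher in the second library (CACNA1A, KCNG1, HCN2, KCNH6, KCNQ1, KCNG3 and KCNK5 among them), and the control libraries did so in 9.

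**Figure D4:**
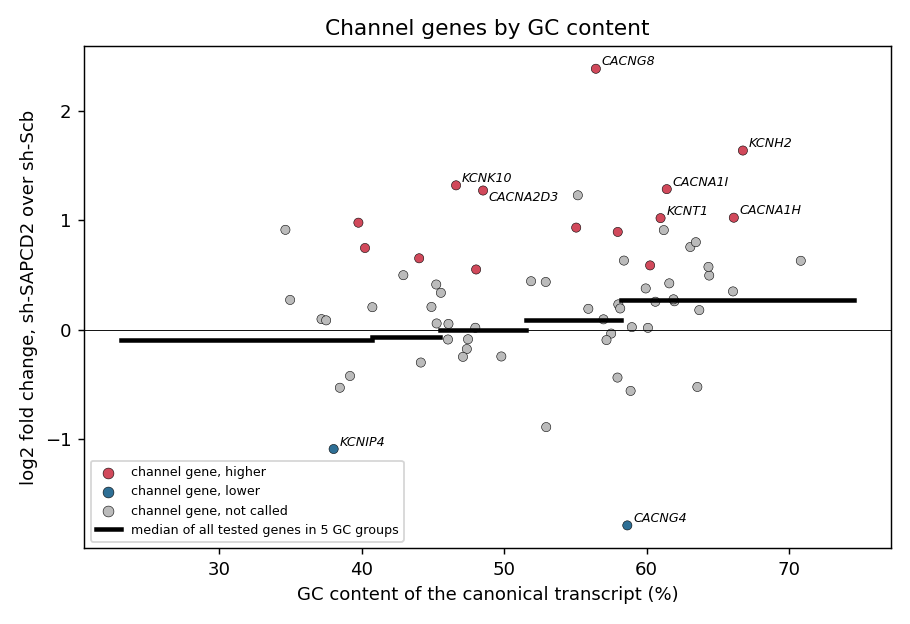
Log2 fold change of the 65 channel genes with a mean of at least 1 CPM against GC content of the canonical transcript in percent. Red points are higher and blue points lower, black bars are the median of all tested genes in each of 5 GC groups, from -0.09 on the left to 0.27 on the right, and names mark DEGs. KCNH2, CACNA1H and CACNA1I lie among the GC-rich genes, and CACNG4 lies far below the bar of its GC group.

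Promoters were compared over the window from 250 bases before to 50 after the RefSeq start (GRCh38.p14), which was at hand for 59 of the 87 channel genes and 14 of the 19 called ones. Letters were searched on both strands. The E-box CACGTG, the core word bound by MYC family factors, was in 10.05% of 11925 tested genes' windows and in 5 of 59 (8.47%) channel windows, of which CACNA1B and CACNA1I were called. Their windows are shown because both genes rose, with the E-box in capitals and the sequence along the gene's strand:
CACNA1B, chr9:137877728-137877751, plus strand: gggccccgcCACGTGaccggcccc
CACNA1I, chr22:39570695-39570718, plus strand: tgtccccacCACGTGccaccctct

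The left part of the RE1 element bound by the neuronal repressor REST, TTCAGCACC, was in 0.335% of all windows and in 2 of 59 channel windows (KCNH6 and KCNK3, neither called), and its right part, GGACAGCGC, in 0.931% and in none. The E2F words TTTCCCGC (2.52% of all windows) and TTTGGCGC (1.02%) were each in 1 channel window, KCNQ5 and KCNIP2, neither called. REST itself had 16.7 ± 2.03 CPM in control and 21.6 ± 5.58 CPM in knockdown libraries (log2 fold change 0.37, adjusted p = 0.250).

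Genes whose products assemble with or regulate these channels, listed with REST, its corepressors and known REST target genes, were called in both directions. Of 72 on 5 lists 62 were tested, 10 higher (16.1%) and 6 lower (9.68%), with a median log2 fold change of 0.03. Over all tested genes 12.4% were higher and 12.5% lower, and these differences in share were not tested either. Among 13 tested Kv partners 2 were higher and none lower, among 15 sodium channel partners 4 were higher and none lower, and among 18 calcium channel partners 2 were higher and 2 lower. The sodium leak complex had 1 higher and 1 lower of 4, and the list of REST, its corepressors and known target genes 1 higher and 3 lower of 12. The highest-ranked by p were L1CAM (an adhesion protein and REST target, 212 ± 7.11 to 393 ± 39.5 CPM, log2 fold change 0.89, SE 0.110, adjusted p = 0.00502), CALM3 (calmodulin, 0.77, SE 0.132, adjusted p = 0.0114) and DLG3 (a scaffold, 0.72, SE 0.148, adjusted p = 0.0191). The lower genes were led by CAMK2G (a calmodulin-dependent kinase, 72.1 ± 0.0208 to 40.5 ± 1.65 CPM, log2 fold change -0.83, SE 0.110, adjusted p = 0.00587), STMN2 (-0.50, SE 0.0964, adjusted p = 0.0155) and the REST corepressor RCOR1 (-0.97, SE 0.195, adjusted p = 0.0180).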

How the data were processed

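RNA of SK-N-BE(2) cells was sequenced as 150 bp paired-end reads. The authors aligned them to hg38 with HISAT2 (2.2.0) and estimated abundance with StringTie. The deposited table holds whole read counts per Ensembl gene for all 4 libraries, and the step from abundance to counts, the annotation release, the use of strand and the handling of multi-mapped reads are not given in the sources used here. Of the tested genes, 17467 (93.0%) matched GENCODE 44, which supplied symbols, coordinates, lengths and GC content. Of the 87 reported channel genes, 60 overlap another annotated gene, as do 14 of the 19 called.

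Counts were filtered (filterByExpr, minimum count 10, total 15), scaled by TMM and tested with edgeR 4.0.16 in R 4.3.3 (quasi-likelihood F-test, 2 libraries against 2, Benjamini-Hochberg over 18779 genes). The biological coefficient of variation was 15.4%. On simulated data for 18779 genes of this comparison, 76 of 100 genes changed 2-fold and 100 of 100 changed 4-fold were recovered, and 11 unchanged genes were called. The changed genes were drawn from those with a mean above 1 CPM, all genes had the same dispersion, and no GC trend was simulated. The recovery therefore does not cover channel genes below that level, such as KCNJ2, KCNQ3 and SCN1A. The number of false calls does not cover a GC trend between libraries. Levels per length divide CPM by the canonical transcript. SDs are over the 2 libraries of a group.

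Members, lists and tests were chosen with earlier results of these data known. Genes were named by rule: SAPCD2, DEGs, in each class the highest level per length and the called member with the smallest p, the 3 associated genes with the smallest p in each direction, REST, and members with near-identical copies. Other genes described were chosen after their values were seen. A few genes that enter the counts are not reported here by name. Alternatives were DESeq2 1.42.0, other scalings and filters, the replicate number as a block, a loess correction for GC content and length (span 0.3), protein-coding genes alone, and leaving out each library.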

Additional observations from a re-analysis of the deposited data

How the results depend on the processing

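Over 14 alternatives no called channel gene reversed, and the median log2 fold change of the 87 stayed between 0.14 and 0.32. Of the 19 called, 8 kept their call under every alternative that gave an adjusted p, and 11 lost it in at least 1. DESeq2 gave no adjusted p for KCNJ2, SCN1A and KCNQ3, lost CACNA1I (0.0705) and left 2 lower DEGs, as did a minimum mean of 1 CPM, against 4. Without a filter on low counts 34935 genes were tested and 6 genes lost their call (CACNA1I, CACNA2D3, KCNC1, SCN1A, SCN2A and SCN4B, adjusted p 0.0512 to 0.141). That fit gave 10 higher channel genes against 15 (11.5%, against 3.09% of all genes). SAPCD2 had a log2 fold change of -0.91 there, with an adjusted p of 0.0749. Associated genes numbered 2 higher and 2 lower, against 10 and 6. The GC and length correction gave 17 higher channel genes (19.5%, against 20.9% of all genes) and 7 lower against 4 (8.05%, against 18.6% of all), and 20 higher and 11 lower associated genes, lost KCNC1 (adjusted p 0.0595) and called REST at 0.46 (adjusted p 0.0454). With the replicate block added to it there were 7 lower channel genes (8.05%, against 18.2% of all) and 17 higher and 10 lower associated genes. The replicate block alone gave 20 higher channel genes (23.0%, against 15.2% of all genes) and 7 lower (8.05%, against 14.4%), holding all 19. The labels give the same-numbered libraries a shared number and state no pairing. The deviations of these libraries correlated at -0.0188, a value that does not show whether they were handled together. Union exon length in place of the canonical transcript, chosen after seeing the data, shared 9 of the 10 highest levels. The cause was not tested where a count moved.

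Leaving out 1 library gave log2 fold changes between -1.23 and -0.67 for SAPCD2. Those of KCNH2 lay between 1.32 and 1.89, and those of CACNG4 between -1.82 and -1.76. The lone library of a group was then assumed to vary like the other group. Without sh-Scb replicate 1 there were 8 higher and 5 lower, and 7 genes lost their call, CACNA1I, KCNC1, KCNH8, KCNJ8, SCN2A and SCN4B among them (adjusted p 0.0626 to 0.318). Without sh-Scb replicate 2 they included CACNA1I, CACNA2D3, KCNC1, KCNH8, KCNIP4, KCNJ8, KCNK10, SCN1A and SCN4B. Without sh-SAPCD2 replicate 1 there were 26 higher and 9 lower, and without sh-SAPCD2 replicate 2 17 higher and 7 lower, both holding all 19. SCN9A was called in both of these and in 9 of the 14 in all. At 0 to 37 counts a library, KCNJ2, KCNQ3 and SCN1A rest on few reads.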
